A study of Mus musculus with 6 samples.

Results

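The 9 genes that write, maintain, erase and read DNA methylation (Dnmt1, Dnmt3a, Dnmt3b, Dnmt3l, Tet1, Tet2, Tet3, Uhrf1 and Mbd2) were examined in MTT and MPC cells, 2 mouse pheochromocytoma (PHEO) cell lines. They were chosen by symbol: a gene entered if a probe set of the array was annotated with that symbol alone, and where a gene had several such probe sets the one with the highest mean over the 6 arrays was used. All 9 were measured, by 12 probe sets, among 19937 genes in all. MPC cells were derived from Nf1 knock-out mice, by the methods, and keep a differentiated phenotype. MTT cells came from MPC cells that had colonised the liver and proliferate faster, so both lines share the Nf1 background. The 3 MPC samples carry that name in their title and cell type, on which the grouping rests, while their source, disease status and growth fields read as those of the MTT samples do, down to naming MTT cells. Each line was cultured untreated, in the same serum-containing medium by the methods, and 3 samples of each were hybridised to 1 Affymetrix Mouse Gene 1.0 ST array apiece. Each is a single line, and the sources used here speak of separate samples but not of separate cultures. The p-values therefore rest on the spread between these samples alone, which may be technical.

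DNA methyltransferases add a methyl group to cytosine, in mammals mostly where a guanine follows (a CpG). Dnmt1 copies the mark onto the new strand after replication, guided by Uhrf1, which binds half-methylated CpGs, while Dnmt3a and Dnmt3b place the mark on unmethylated DNA with the catalytically inactive cofactor Dnmt3l. The TET enzymes oxidise the methyl group and so start its removal, using 2-oxoglutarate, and succinate inhibits them, which is why they are studied in PHEO with succinate dehydrogenase mutations. Mbd2 binds methylated CpGs and brings in the NuRD corepressor complex. The nucleoside analogues decitabine and azacitidine, which trap DNA methyltransferases, were in the drug library that the study screened on MTT cells. The question addressed here is whether the targets of these drugs and the genes around them differed in mRNA level between the lines.

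The CpG is the substrate of these enzymes, and the start sites of their own genes differ widely in how many they hold. RefSeq promoter windows of 300 bases (250 before and 50 after a start site, build GRCm38.p6) were examined for 8 of the 9 genes, with 15 windows in all. Mbd2 was left out of this selection, so its promoter was not examined. The window with the most CpGs is shown for Dnmt1 and Uhrf1, the maintenance pair, and for Dnmt3l, whose richest window holds the fewest of the 8 genes, 5′ to 3′ on the gene's strand, with each CpG in capitals.
Dnmt1, chr9:20952574-20952873, minus strand: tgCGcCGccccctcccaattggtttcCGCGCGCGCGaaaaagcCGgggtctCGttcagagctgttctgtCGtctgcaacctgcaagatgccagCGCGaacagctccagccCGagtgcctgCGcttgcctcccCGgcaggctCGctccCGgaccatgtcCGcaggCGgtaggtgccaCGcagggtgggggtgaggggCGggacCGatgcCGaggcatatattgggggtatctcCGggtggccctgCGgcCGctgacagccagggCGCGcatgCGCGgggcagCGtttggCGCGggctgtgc
Uhrf1, chr17:56304063-56304362, plus strand: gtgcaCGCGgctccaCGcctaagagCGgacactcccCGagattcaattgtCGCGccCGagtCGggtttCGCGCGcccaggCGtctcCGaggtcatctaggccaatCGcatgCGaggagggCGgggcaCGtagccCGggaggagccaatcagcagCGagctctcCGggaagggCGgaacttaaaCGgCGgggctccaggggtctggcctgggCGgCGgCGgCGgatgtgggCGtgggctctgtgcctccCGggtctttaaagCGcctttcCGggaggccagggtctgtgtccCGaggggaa
Dnmt3l, chr10:78042037-78042336, plus strand: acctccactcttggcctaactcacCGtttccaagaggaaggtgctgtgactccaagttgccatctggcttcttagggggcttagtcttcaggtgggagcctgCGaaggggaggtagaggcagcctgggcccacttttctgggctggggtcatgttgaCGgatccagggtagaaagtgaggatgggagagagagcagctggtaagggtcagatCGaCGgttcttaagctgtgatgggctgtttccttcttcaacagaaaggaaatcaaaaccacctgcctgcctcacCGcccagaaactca
The Dnmt1 and Uhrf1 windows hold 33 CpGs each, a number reached by 8.56% of the 32851 windows of all genes, whose median is 7. The Dnmt3l window holds 6, and its other windows 4 and 3. The richest window of the others held 57 CpGs for Tet2, 47 for Dnmt3a, 30 for Dnmt3b, 22 for Tet3 and 17 for Tet1. The letters of the consensus site of E2F factors, which drive S phase genes, were searched on both strands as TTTCCCGC, TTTGGCGC, TTTCGCGC and TTTGCCGC, and the matches below do not overlap each other. The Dnmt1 window shown holds TTTGGCGC at bases 284 to 291 and TTTCGCGC, on the other strand, at bases 32 to 39, and the Uhrf1 window holds TTTCGCGC at bases 66 to 73. No other window of the 8 genes has a match, and 2.26% of all windows do. Each searched site contains a CpG, and the share among windows as rich in CpGs as these was not computed. These are matches of letters, and nothing here measured binding or methylation.

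Values are log2 signals (± marks the SD over the 3 arrays of a line) after the RMA method, in which background is subtracted, the distributions of the arrays are made equal and probes are combined into 1 value per probe set. Medians lay between 7.73 and 7.76 for MTT and between 7.73 and 7.77 for MPC, and a signal under about this median is not shown to lie above background. Both lines carried the chromaffin markers fixed for the check, with 9 of 10 above that median. Th, the first enzyme of catecholamine synthesis, read 13.46 in MTT and 13.49 in MPC cells. Of the 10, 3 differed between the lines, against 7.87% of all genes: Slc18a1 by 0.27, Gata3 by 0.19 and Chgb by -0.15 (limma, adjusted p = 0.00424, 0.0445 and 0.0233). Of 5 fibroblast markers 3 were above the median too, up to Col1a1 at 8.73 in MTT and 8.76 in MPC cells. A signal up to about that of Col1a1 is therefore not shown to lie above background either. Of 6 hepatocyte markers, checked because the source field of all 6 samples names a metastasis to liver, 1 was above the median (Hnf4a, at 8.10 in MTT and 8.07 in MPC cells), and albumin read 6.32 in MTT and 6.28 in MPC cells. The summed hepatocyte level lay between 9.73 and 9.84 for MTT and between 9.72 and 9.81 for MPC. Across all genes, 1569 of 19937, or 7.87%, differed between the lines (limma, Benjamini-Hochberg adjusted p under 0.05 over all genes), 784 higher and 785 lower in MTT cells.

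No difference between MTT and MPC cells was detected for any of the 9 genes: 0 of 9 passed at an adjusted p under 0.05 (limma), against 7.87% of all genes (3.93% higher and 3.94% lower in MTT cells), and 0 of 9 had an unadjusted p under 0.05, against 20.5% of all genes. No alternative fit run here called any of them either, though the fit on genes above the median signal did not include Dnmt3b and Dnmt3l. The largest difference, that of Dnmt3l, was 0.07 on the log2 scale. The median absolute difference of the 9 genes was 0.03, against 0.05 over all genes. Of the 9, 6 had a positive and 3 a negative sign.

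Dnmt1, the maintenance methyltransferase and main target of decitabine, read 12.012, 12.014 and 12.015 on the MTT arrays, against 12.007, 12.002 and 11.983 on the MPC arrays. Every MTT array lay above every MPC array, which also holds for 27.2% of all genes in one direction or the other, but by very little: the log2 difference was 0.017 (adjusted p = 0.828 by limma, SE, the standard error, 0.030). The 95% interval in linear signal ran from -3.64% to 6.19%. The residual spread of Dnmt1, an SD of 0.009, was among the smallest of all genes (percentile 0.386). A log2 difference of 0.12 would have been enough for Dnmt1 to pass the threshold, the smallest such size among the 9 genes.

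Uhrf1, which recruits Dnmt1 to newly copied DNA, read 12.41, 12.37 and 12.35 in MTT cells, against 12.42, 12.42 and 12.35 in MPC cells. The arrays of the lines overlapped, with the lowest MPC array below all MTT arrays, and the log2 difference was -0.017 (adjusted p = 0.856 by limma, SE 0.037). Its interval was -6.84% to 4.78%.

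Of the de novo enzymes, Dnmt3a read 9.54, 9.59 and 9.65 in MTT cells, against 9.56, 9.59 and 9.51 in MPC cells. The lines overlapped, and the log2 difference was 0.042 (adjusted p = 0.638 by limma, SE 0.041). Dnmt3b read 8.10, 8.04 and 8.003 in MTT cells, against 8.08, 8.08 and 8.11 in MPC cells. Here 2 MTT arrays were below all MPC arrays and the third was not, with a log2 difference of -0.043 (adjusted p = 0.587 by limma, SE 0.037). The intervals were -3.58% to 9.93% for Dnmt3a and -8.53% to 3.01% for Dnmt3b. The Dnmt3b signals are below the means of the fibroblast marker Col1a1 (8.73 in MTT and 8.76 in MPC cells) and are not shown to lie above background.
Dnmt3l, the cofactor of germ cells and early embryos, read 6.39, 6.56 and 6.59 in MTT cells, against 6.46, 6.45 and 6.41 in MPC cells, so that MTT replicate 1 was the lowest of all 6 arrays and the other MTT arrays the highest. All of these signals are under the array median and are not shown to lie above background. The log2 difference was 0.073 (adjusted p = 0.512 by limma, SE 0.054), and it was 0.14 without MTT replicate 1, where it still did not pass (adjusted p = 0.119). This was the noisiest of the 9 genes, and a log2 difference of 0.22 would have been needed to pass.

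**Figure D1:**
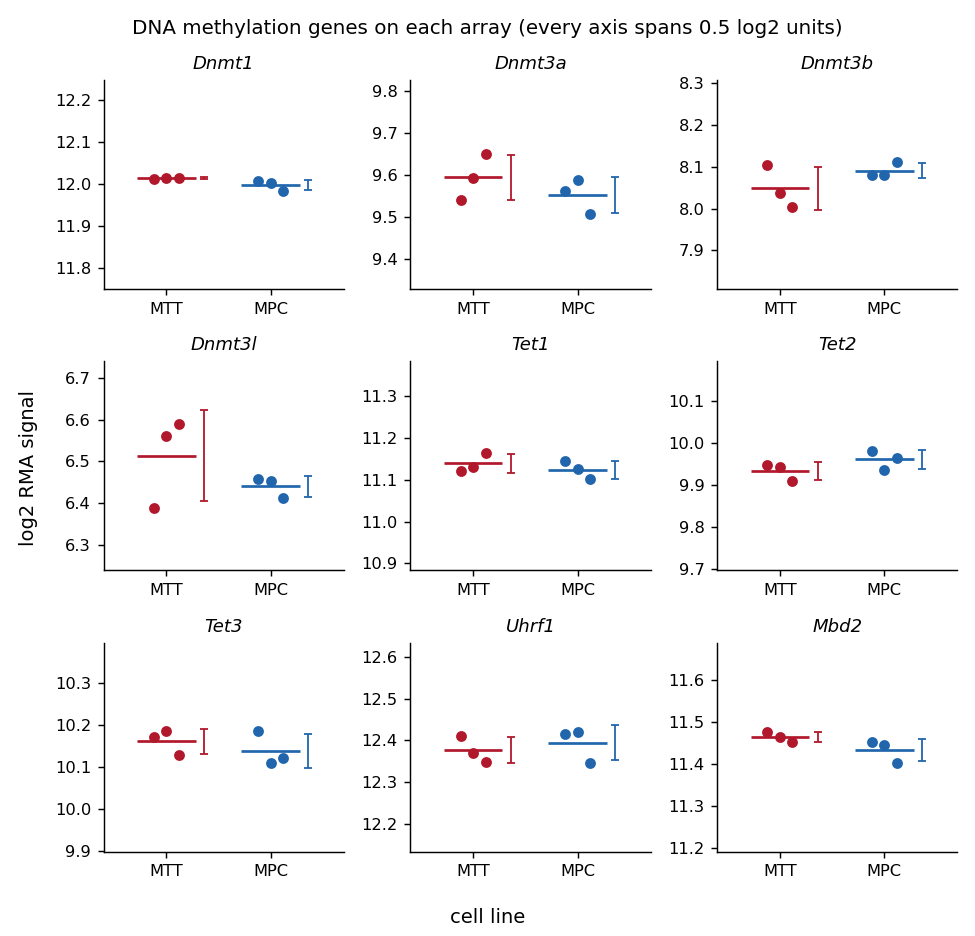
log2 RMA signal (vertical axis) of the 9 genes on the 3 MTT arrays (red, left) and the 3 MPC arrays (blue, right). Points are arrays in the order of their replicate numbers, long bars are means and the thin bars beside them span 1 SD each way; every panel spans 0.5 log2 units, and levels of different genes are not comparable. Only for Dnmt1 and Mbd2 do the arrays of the lines not overlap, at means of 12.01 in MTT and 12.00 in MPC cells for Dnmt1.

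The TET enzymes were read by more than 1 probe set for 2 of the 3 genes, which gives a further view of each. Tet1 read 11.12, 11.13 and 11.16 on the brightest probe set in MTT cells, against 11.14, 11.13 and 11.10 in MPC cells, a log2 difference of 0.015 (adjusted p = 0.861 by limma, SE 0.033). The second probe set of Tet1 (10369690) read 10.47, 10.53 and 10.48 in MTT cells, against 10.55, 10.58 and 10.55 in MPC cells. On this probe set every MTT array was below every MPC array, as the lines also were apart, either way, for 22.7% of all probe sets. Its log2 difference was -0.071 (SE 0.034), which did not pass in the fit over all 34760 probe sets (adjusted p = 0.391 by limma), where 2.71% of probe sets passed. The third probe set (10369688) read 9.95, 9.94 and 9.93 in MTT and 9.95, 9.94 and 9.93 in MPC cells, a log2 difference of -0.0051. The sign for Tet1 therefore depended on the probe set, and the mean of its probe sets gave -0.020. Which part of the transcript each probe set reads was not analysed here.
Tet2, the family member without a CXXC domain of its own, read 9.95, 9.94 and 9.91 in MTT cells, against 9.98, 9.94 and 9.97 in MPC cells. The arrays overlapped, with a log2 difference of -0.027 (adjusted p = 0.712 by limma, SE 0.032). Tet3 read 10.17, 10.19 and 10.13 in MTT cells, against 10.19, 10.11 and 10.12 in MPC cells, a log2 difference of 0.023 (adjusted p = 0.793 by limma, SE 0.036). The second Tet3 probe set had the same sign, with 9.63, 9.56 and 9.61 in MTT and 9.53, 9.50 and 9.59 in MPC cells, and its difference of 0.063 did not pass either (adjusted p = 0.520 by limma). The intervals were -4.07% to 6.44% for Tet1 on its brightest probe set, -6.85% to 3.34% for Tet2 and -4.12% to 7.701% for Tet3.

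Mbd2, the methyl-CpG reader, read 11.48, 11.46 and 11.45 in MTT cells, against 11.45, 11.45 and 11.40 in MPC cells. The 3 MTT arrays lay above the 3 MPC arrays, by under 0.01 between the nearest, and the log2 difference was 0.031 (adjusted p = 0.664 by limma, SE 0.032), with an interval of -2.97% to 7.56%. With Dnmt1 this made 2 of 9 genes whose arrays did not overlap between the lines, against 27.2% of all genes.
With any 1 array left out, each of the 9 differences kept its sign and did not pass (smallest adjusted p = 0.119 by limma), but most moved in size. Uhrf1 lay between -0.041 without MPC replicate 3 and -0.0035 without MTT replicate 3. Dnmt3a ranged up to 0.069 and Dnmt3b down to -0.071, both without MTT replicate 1, and they came closest to 0 without MTT replicate 3, at 0.014 and -0.021. Among the TET enzymes, Tet3 lay between 0.0085 without MPC replicate 2 and 0.047 without MPC replicate 1, and Tet1 between 0.0021 without MTT replicate 3 and 0.025 without MPC replicate 1.

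**Figure D2:**
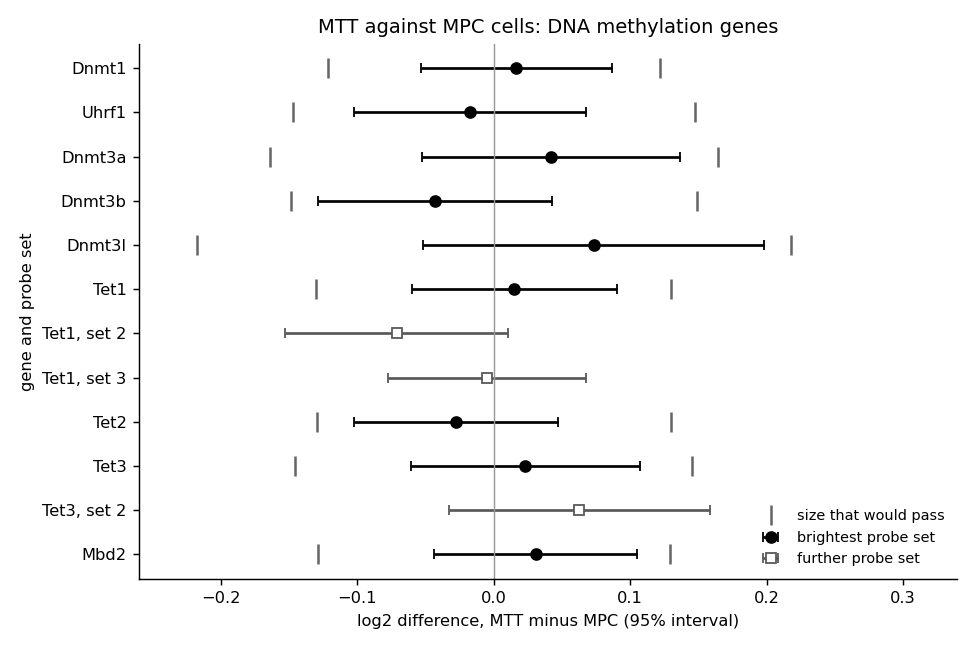
log2 difference (horizontal axis, MTT minus MPC) of the 9 genes and of the 3 further probe sets of Tet1 and Tet3 (vertical axis). Points are estimates, bars 95% intervals from limma, and grey ticks the difference that would have passed for the brightest probe set; all 12 intervals include 0, and each estimate of the 9 genes lies inside its ticks, 0.12 either way for Dnmt1 and 0.22 for Dnmt3l.

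Over the 6 arrays the 9 genes did not vary as 1 group. Dnmt1 and Mbd2 varied together most closely (Pearson's r = 0.93, n = 6 arrays), and Dnmt3b and Dnmt3l most oppositely (r = -0.98). These correlations rest on a total range of 0.03 log2 units for Dnmt1 and 0.20 for Dnmt3l, on arrays of 2 lines and with normalization in common, and are given as descriptions. The genes whose signals followed that of Dnmt1 most closely were Kcmf1 (r = 0.998), Madd (r = 0.997) and Mtmr14 (r = 0.996), and 109 genes had r over 0.95. For Uhrf1 they were Rrnad1 (r = 0.987), Pvr (r = 0.985) and Slc25a22 (r = 0.984), and 35 genes had r over 0.95. These are the highest values among 19937 genes on only 6 arrays, so they too are descriptions, and no link between the genes was tested.

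Around these genes, 9 lists of partners, substrates and targets were described, with 143 measured genes. Of these 4 were higher and 7 lower in MTT cells, or 7.69% called, close to the 7.87% of all genes tested. The lists were chosen with earlier results of these data known, so this share and those of the single lists are descriptions only. The median log2 difference over the 143 genes was -0.018, against -0.008 over all genes. Of the 11 called genes, 2 lie on chromosome 13 and were higher, and 3 lie on chromosome 19 and were lower. Genes with a mean signal above the median of all genes had a median log2 difference of 0.20 on chromosome 13 and -0.11 on chromosome 19, and the part of the chromosome in these calls was not tested. None of the 9 genes themselves lies on either: Dnmt1 is on chromosome 9, Uhrf1 on 17, Dnmt3a on 12, Dnmt3b on 2, Dnmt3l and Tet1 on 10, Tet2 on 3, Tet3 on 6 and Mbd2 on 18.

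Partners that target or maintain the mark held the single large difference. Of 19 measured, 2 were higher and 2 lower in MTT cells, or 21.1% called against 7.87% of all genes, and the median log2 difference was -0.013, against -0.008 over all genes. Zfp57, which binds methylated imprinting control regions and keeps their methylation, read 9.55, 9.63 and 9.56 in MTT cells, against 8.22, 8.19 and 8.16 in MPC cells. It was higher in MTT cells by 1.39 on the log2 scale (adjusted p = 1.67e-06 by limma, SE 0.04), with no overlap between the lines. Its MPC signals are below the mean of the fibroblast marker Col1a1 in MPC cells (8.76) and are not shown to lie above background. In bulk RNA, a different share of cells that express a gene and a different RNA amount per cell cannot be told apart. Trim28, the corepressor that Zfp57 brings to its sites, had a difference of 0.06 (adjusted p = 0.435 by limma), and Setdb1, the histone methyltransferase of the same complex, one of -0.025 (adjusted p = 0.726 by limma).
Nsd1, a histone H3 methyltransferase whose mark attracts Dnmt3a, lies on chromosome 13 and was higher in MTT cells, at 11.09, 11.16 and 11.15 in MTT and 10.88, 10.89 and 10.88 in MPC cells (log2 difference 0.25, SE 0.03, adjusted p = 0.00357 by limma). Hells, a chromatin remodeller needed for methylation of repeats, lies on chromosome 19 and was lower, at 10.96, 10.93 and 10.88 in MTT and 11.07, 11.12 and 11.07 in MPC cells (log2 difference -0.16, adjusted p = 0.0313 by limma). Hells did not pass once any 1 of the 6 arrays was left out (adjusted p 0.0567 to 0.114). The fourth call was Kat5, an acetyltransferase on chromosome 19, with a log2 difference of -0.14 (adjusted p = 0.0333 by limma), and without 1 array it passed only when MPC replicate 3 was the one left out (adjusted p 0.0482 to 0.119). With each array centred on its median neither Hells (adjusted p = 0.0722) nor Kat5 (adjusted p = 0.0983) passed, which left 2 calls in this list.

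Of 8 other readers measured, 0 passed, against 7.87% of all genes, and 3 had an unadjusted p under 0.05 (limma), against 20.5% of all genes. Mbd3, a NuRD subunit that in mammals does not itself prefer methylated CpGs, had the smallest p, with means of 10.98 ± 0.02 in MTT cells and 10.87 ± 0.02 in MPC cells and a log2 difference of 0.11 (adjusted p = 0.0859 by limma). Mbd3 did pass in 3 alternative fits, at an adjusted p of 0.0173 where variances followed a trend with signal, of 0.0191 with dim genes removed and of 0.0435 after cyclic loess. Of 11 NuRD genes, 0 passed, against 7.87% of all genes, and 1 had an unadjusted p under 0.05 (limma), against 20.5% of all genes. It was Mta3, a subunit of the complex, at 11.93 ± 0.01 in MTT cells and 11.84 ± 0.05 in MPC cells (log2 difference 0.09, adjusted p = 0.207 by limma). With the mean of its probe sets the log2 difference of Mta3 was 0.019 (adjusted p = 0.810 by limma).

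The next list joined TET partners with genes of base excision, which finishes the removal of the oxidised base. Tdg was listed but not measured. Of the 18 measured genes, 1 was lower in MTT cells and 17 did not pass. That is 5.56% called, against 7.87% of all genes. Gadd45b, a stress gene linked to demethylation, read 8.04, 8.12 and 8.07 in MTT cells, against 8.36, 8.33 and 8.27 in MPC cells. MTT cells had the lower signal (log2 difference -0.25, adjusted p = 0.00722 by limma, SE 0.04), which missed the threshold with unmoderated variances (adjusted p = 0.0522). The fit on genes above the median signal did not include Gadd45b. Its signals are below the means of the fibroblast marker Col1a1 (8.73 in MTT and 8.76 in MPC cells) and are not shown to lie above background. Gadd45g of the same family, on chromosome 13, had a difference of -0.24, which did not pass (adjusted p = 0.0585 by limma).

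In the methyl donor cycle, which makes S-adenosylmethionine for the methyltransferases, 2 of 17 measured genes were higher and 2 lower in MTT cells, or 23.5% called against 7.87% of all genes. The median log2 difference of this list was -0.0047, against -0.008 over all genes. Shmt2, which feeds the mitochondrial folate pathway, read 11.73, 11.63 and 11.68 in MTT cells, against 11.44, 11.42 and 11.38 in MPC cells (log2 difference 0.27, SE 0.04, adjusted p = 0.00489 by limma). Ahcyl2, related to the enzyme that clears S-adenosylhomocysteine, went the other way, at 10.98, 10.96 and 11.003 in MTT and 11.27, 11.26 and 11.19 in MPC cells (log2 difference -0.26, adjusted p = 0.00391 by limma). Neither gene's arrays overlapped between the lines.
Mtrr, the reductase that keeps methionine synthase active, lies on chromosome 13 and had a log2 difference of 0.27 (adjusted p = 0.0171 by limma). It missed the threshold without MTT replicate 1 or 2 (adjusted p 0.0617 and 0.0723) and with unmoderated variances (adjusted p = 0.112). Methionine synthase itself, Mtr, also on chromosome 13, read 9.16 ± 0.04 in MTT cells and 9.17 ± 0.03 in MPC cells. The fourth call, Cbs, which draws homocysteine out of the cycle, had a log2 difference of -0.17 (adjusted p = 0.0180 by limma), and it ended without MTT replicate 1 or 2 or MPC replicate 2 (adjusted p 0.0629 to 0.0823).

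Of 15 measured genes that make or clear 2-oxoglutarate, succinate and related acids, 1 was lower and 14 did not pass. That is 6.67% called, against 7.87% of all genes. Sdhaf2, an assembly factor of succinate dehydrogenase on chromosome 19, read 9.95, 9.96 and 9.91 in MTT cells, against 10.14, 10.17 and 10.13 in MPC cells (log2 difference -0.21, SE 0.03, adjusted p = 0.00698 by limma). Sdhb, the subunit whose human mutations mark aggressive PHEO, had a log2 difference of 0.06 (adjusted p = 0.547 by limma), and Idh2, an isocitrate dehydrogenase, one of -0.15 (adjusted p = 0.0898 by limma).

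The 18 measured genes that take up and activate decitabine and azacitidine, or break them down, held 1 call. The share called was 5.56%, against 7.87% of all genes. Cda, which inactivates both drugs by deamination, read 9.78, 9.72 and 9.67 in MTT cells, against 10.09, 10.17 and 9.86 in MPC cells (log2 difference -0.32, adjusted p = 0.0400 by limma). The call ended in every fit without 1 array except that without MPC replicate 3 (adjusted p 0.0865 to 0.125 in those, 0.00420 without it). Dck, which phosphorylates decitabine, read 11.37 ± 0.02 in MTT cells and 11.39 ± 0.03 in MPC cells (adjusted p = 0.765 by limma), and Uck2, which phosphorylates azacitidine, 12.55 ± 0.01 in MTT cells and 12.53 ± 0.01 in MPC cells (adjusted p = 0.796 by limma). The nucleoside transporter Slc29a1 had a log2 difference of -0.09 (adjusted p = 0.254 by limma).

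Germline genes, which somatic cells keep silent by promoter methylation, were dim in both lines. Of 17 measured, 0 had a mean signal above the array median, and group means lay between 4.24 and 7.17. None passed the test, against 7.87% of all genes, and 0 had an unadjusted p under 0.05 (limma), against 20.5% of all genes. Mael, of the piRNA pathway, had the smallest p, at 5.25 ± 0.07 in MTT cells and 5.33 ± 0.08 in MPC cells (adjusted p = 0.460 by limma), and Dazl, a germ cell RNA-binding protein, read 5.20 in MTT and 5.27 in MPC cells. These signals are not shown to lie above background in either line.

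Dnmt1 and Uhrf1 are transcribed mostly in cycling cells, so S phase genes were set beside them. Of 20 measured, 0 passed, against 7.87% of all genes, and 6 had an unadjusted p under 0.05 (limma), against 20.5% of all genes. Their median log2 difference was -0.037, against -0.008 over all genes. Fen1, the flap nuclease of lagging strand synthesis, on chromosome 19, had the smallest p, at 10.89 ± 0.07 in MTT cells and 11.07 ± 0.04 in MPC cells (log2 difference -0.18, adjusted p = 0.0532 by limma), and it passed without MTT replicate 1 (adjusted p = 0.0350). It also did so in the same 3 alternative fits as Mbd3, at an adjusted p of 0.00596 with the trend, 0.0118 with dim genes removed and 0.0391 after cyclic loess. Mki67, the proliferation marker Ki-67, read 12.35 ± 0.02 in MTT cells and 12.36 ± 0.03 in MPC cells. In the fit over all probe sets Hells, Kat5, Mtrr, Cbs and Cda did not pass (adjusted p 0.0625 to 0.135). With a mean-variance trend, where 2416 of 19937 genes were called, the lists held 5 calls among the maintenance and targeting partners, 4 in the methyl donor cycle, 5 among the genes of 2-oxoglutarate and succinate, 3 among the S phase genes, 2 each among the readers, the TET partners and base excision genes and the azanucleoside genes, and 0 among the germline and NuRD genes.

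**Figure D3:**
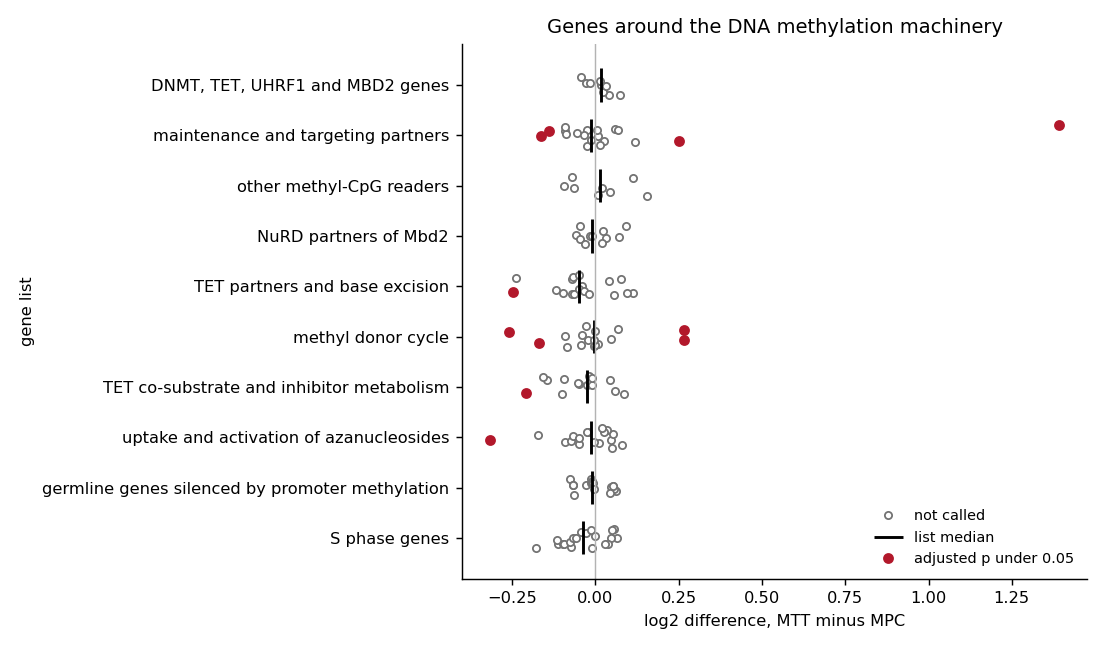
log2 difference (horizontal axis, MTT minus MPC) of the 9 genes and of the genes of 9 lists around them (vertical axis). Each point is 1 gene, red where the limma adjusted p was under 0.05, and black bars are medians; 11 of 143 list genes are red, and Zfp57, at 1.39, stands far to the right of the rest.

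**Figure D4:**
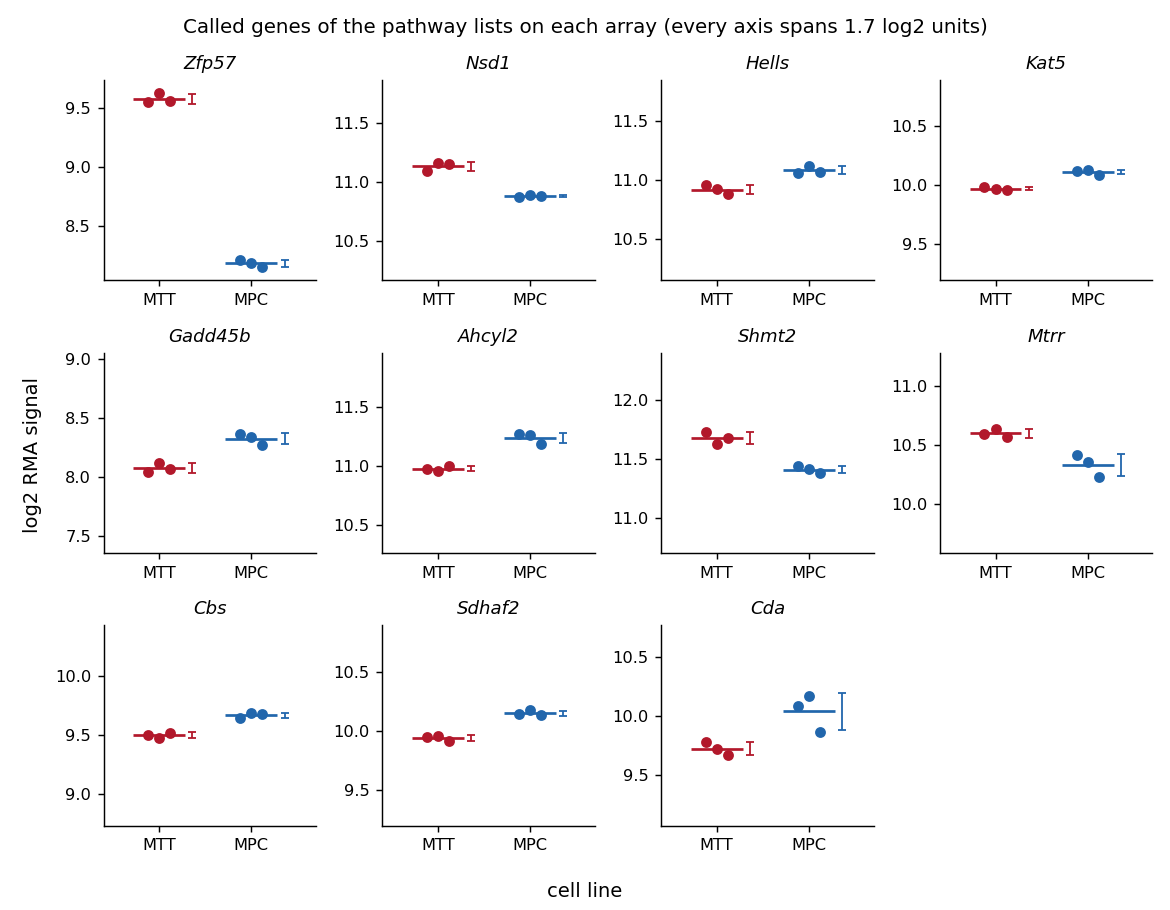
log2 RMA signal (vertical axis) of the 11 called list genes on the 3 MTT arrays (red, left) and the 3 MPC arrays (blue, right). Long bars are means, thin bars span 1 SD each way and every panel spans 1.7 log2 units, so that the difference of Zfp57, 1.39, can be set against those of the others, the largest of which is that of Cda, -0.32.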

How the data were processed

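RNA of 3 MTT and 3 MPC samples was measured on 1-colour Affymetrix Mouse Gene 1.0 ST arrays. The authors deposited log2 values after RMA; Partek and R are named in the methods, Affymetrix Expression Console in the submitters' notes, with versions not given in the sources used here. No Z-scores were among the values. Of 34760 probe sets, 21640 had 1 symbol in the platform's annotation, 21553 of which matched RefSeq (GRCm38.p6) by gene ID, and the brightest probe set of each gene gave 19937 genes. Lines were compared with limma 3.58.1 (lmFit and eBayes, two-sided, Benjamini-Hochberg over all genes) in R 4.3.3; figures used matplotlib 3.10.9. The number of arrays limits the precision. In simulated data of this comparison with 19937 genes, 73 of 100 genes changed by 0.25 and 100 of 100 changed by 1 on the log2 scale were recovered, with 5 false calls among 178. Only those genes were changed, far fewer than the 1569 called in the data. The p needed to pass was therefore smaller in the simulation, and recovery in the data may differ.
The genes and lists were chosen with earlier results of these data known. Named were all 9 genes, up to 3 called genes of each list with the smallest p (the gene with the smallest p where none was called), and the 3 genes most like Dnmt1 and Uhrf1; the other list genes were named after their values were seen. A log2 difference that would pass was taken from each gene's standard error and the p of the last call. Alternatives were other variances, a replicate block, other uses of probe sets, a filter on dim genes, 2 further normalizations and leaving out each array; reading each further probe set of Tet1 and Tet3 was added after the data were seen. No set test was run.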

Additional observations from a re-analysis of the deposited data

How the results depend on the processing

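No alternative called any of the 9 genes, and each of their differences kept its sign except that of Tet1, which was -0.020 with the mean of its probe sets, -0.071 on the second probe set and -0.0051 on the third. The filter on dim genes removed Dnmt3b and Dnmt3l, and Gadd45b among the called list genes, so that fit could not call them. There are limits: with 3 arrays per line only the spread between these arrays is known. Dnmt3l and the germline genes are too dim for a level to be read, and array signal compresses differences of dim genes. Dnmt3b and Gadd45b in both lines, and Zfp57 in MPC cells, read below the fibroblast marker Col1a1 (8.73 in MTT and 8.76 in MPC cells). These signals are not shown to lie above background either, so the size of the Zfp57 difference may be affected.
Counts over all genes depended on the fit, and the cause was not tested. The counts given above were 1569 genes, 784 higher and 785 lower in MTT cells, and 11 list genes. Without moderation of the variances 824 passed, 428 higher and 396 lower. With a mean-variance trend 2416 passed, 1302 of them lower, and 23 list genes. Among genes above the median signal 1195 were lower and 24 list genes passed. Over all probe sets 942 passed, 506 higher and 436 lower, and 6 list genes. Leaving out 1 array gave 891 to 1276 genes, 462 to 617 higher and 429 to 659 lower, and 6 to 10 list genes, with 891 genes without MTT replicate 2, 924 without MTT replicate 1, 994 without MTT replicate 3 and 1004 without MPC replicate 2.
Same-numbered MTT and MPC arrays deviated together weakly (r of 0.12, 0.074 and 0.25 across genes). Arrays of unlike number had r from -0.161 to 0.066, so each MTT array was closest to the MPC array of its own number. The fits given above did not take the numbers as pairs, and whether they are pairs was not tested. With the replicate block 1501 genes passed, 755 higher and 746 lower, with 12 list genes and 0 of the 9. Kat5 no longer passed (adjusted p = 0.0564), Fen1 did (adjusted p = 0.0327), and the TET partners and base excision genes held 2 calls.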
